A study of Mus musculus with 8 samples.

Results

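A set of 54 genes that act in the mitotic spindle, the kinetochore and cytokinesis was described across 3 mouse fibroblast lines. The genes were chosen by name, and a probe set was assigned to a gene when its RefSeq transcript mapped to that symbol. Of the 54 genes, 52 had a probe set among the 22523 tested, which named 15653 genes in all. Mki67 and Kif15 matched no probe set and were not analysed here. The 52 genes had 62 probe sets with 55 distinct value profiles, and the brightest profile, by its mean over all 8 arrays, stood for its gene.

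The study compared cultures that renewed themselves asymmetrically, in which a cycling cell gives 1 cycling and 1 arrested daughter, with cultures that divided symmetrically. Total RNA was converted to labelled cRNA, which was hybridized to Affymetrix mouse genome arrays. There was 1 array per independent preparation, and values are log2 intensities. Ind-8 (ASYM, 3 arrays) is a p53-null fetal fibroblast line that carries a wild-type mouse p53 cDNA under a modified human metallothionein promoter, which zinc switches on. Con-3 (SYM, 3 arrays) is p53-null; the study's methods describe it as the control with the empty vector, whereas the labels call it the parent of Ind-8. The tI-3 line (p53SYM, 2 arrays) was derived from Ind-8, keeps the zinc-inducible p53 and in addition expresses an IMPDH II transgene constitutively. All cultures were kept for 48 h in 65 µM ZnCl2 with puromycin at 5 µg/ml, and the tI-3 medium alone also held G418. Each state was represented by 1 line, so a difference between states was also a difference between lines. The p-values measure the spread between independent preparations of a line.

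In mitosis, cyclin-dependent kinase 1 and the Aurora and Polo-like kinases drive chromosome condensation and spindle assembly, kinetochores attach each centromere to microtubules, and the spindle checkpoint holds the cell until every kinetochore is attached. The anaphase-promoting complex then releases the sister chromatids, and kinesins, the chromosomal passenger complex and the RhoA machinery of the central spindle bring about their separation and the cleavage of the cell. Most of these genes are transcribed in G2 and mitosis, and in fibroblasts p53 is known to lower many of them through p21 (Cdkn1a) and the DREAM complex of repressors.

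The arrays were alike over most measures. Median log2 values ran from 6.12 to 6.19, the 3′ minus 5′ difference of the actin control probe sets was between 0.06 and 0.19, and that of the Gapdh control probe sets was between -0.21 and -0.11. The actin difference did not overlap between lines. It was 0.1414 to 0.1922 in Ind-8, 0.1104 to 0.1354 in Con-3, and 0.0578 and 0.0695 in tI-3. Whether it bears on the results was not tested. Con-3 replicate 3 stood apart in its control probe sets for 18S ribosomal RNA, with a mean of 10.63 against 5.58 to 6.46 on the other 7 arrays. The controls added at hybridization averaged 9.62 on that array and 9.43 and 9.71 on the tI-3 arrays, against 8.98 to 9.16 on the other 5. For this reason the calls were counted again without Con-3 replicate 3 and in a fit in which these controls' level, high or low, was a block. Changes of single genes come from the fit to all 8 arrays unless another fit is named.

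The labels were checked first. Cdkn1a, which encodes the p53-induced inhibitor of cyclin-dependent kinases, read 9.70, 9.70 and 9.59 in Ind-8, 5.73, 5.81 and 6.03 in Con-3, and 7.55 and 7.33 in tI-3. Mdm2, the ubiquitin ligase that p53 induces against itself, read 10.79, 11.19 and 10.71 in Ind-8, 9.02, 8.79 and 8.87 in Con-3, and 9.67 and 9.56 in tI-3. The 3 lines did not overlap in either gene: Ind-8 was highest, tI-3 lay between and Con-3 was lowest, and the limma log2 change of Cdkn1a was 3.81 ± 0.11 (SE, adjusted p = 1.9e-08) between Ind-8 and Con-3 and 1.59 ± 0.12 (SE, adjusted p = 1.9e-05) between tI-3 and Con-3. For Mdm2 the limma changes were 2.00 ± 0.13 (SE, adjusted p = 1.1e-05) and 0.72 ± 0.14 (SE, adjusted p = 0.0049). The probe set of Trp53 itself was dim, at 5.69, 5.87 and 5.81 in Ind-8, 5.21, 5.29 and 5.27 in Con-3, and 5.60 and 5.69 in tI-3. It was higher in both lines that carry the p53 cDNA than in Con-3, by 0.53 ± 0.09 (SE, adjusted p = 0.0019) for Ind-8 and 0.39 ± 0.10 (SE, adjusted p = 0.014) for tI-3 with limma, and whether its probes lie in the disrupted part of the gene is not given in the sources used here. With the hybridization-control block the calls of Cdkn1a and Mdm2 stayed, and that of Trp53 between tI-3 and Con-3 was lost (adjusted p = 0.1).

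Impdh2, the guanine nucleotide enzyme expressed as a transgene in tI-3, read 12.16, 12.20 and 12.22 in Ind-8, 12.51, 12.56 and 12.53 in Con-3, and 12.35 and 12.38 in tI-3. It was lower in Ind-8 than in Con-3, at a log2 change of -0.34 ± 0.08 (SE, adjusted p = 0.011) with limma, and tI-3 lay between the 2 lines without passing the test against either (limma adjusted p = 0.16 and 0.18). The probe set therefore did not show tI-3 above Con-3, and the species of the transgene is not given in the sources used here. Impdh1, the other isoform, read 8.09, 7.84 and 8.19 in Ind-8, 7.92, 7.99 and 8.03 in Con-3, and 8.05 and 8.15 in tI-3, with overlap between Ind-8 and both other lines. The zinc-responsive metallothionein gene Mt1 read 13.95, 13.88 and 13.81 in Ind-8, 13.72, 13.83 and 13.64 in Con-3, and 13.78 and 13.47 in tI-3, and Mt2 read 13.36, 13.36 and 13.27 in Ind-8, 13.41, 13.56 and 13.38 in Con-3, and 13.19 and 12.94 in tI-3. Both metallothioneins were thus near the top of the range on all 8 arrays, and of their 6 changes only that of Mt2 between tI-3 and Con-3 passed the test, at -0.39 ± 0.11 (SE, adjusted p = 0.025) with limma, a call lost with the block (adjusted p = 0.2).

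The 10 fibroblast markers ranged from Thy1, at a mean of 4.17 over the arrays and under the 25th percentile of all probe sets (4.30), to Vim at 13.89. The mean of the 10 fibroblast markers was 9.91 to 10.20 in Ind-8, 9.77 to 9.96 in Con-3 and 9.57 and 9.49 in tI-3. Col3a1 gave -0.27 (adjusted p = 0.62) between Ind-8 and Con-3, 2.42 (adjusted p = 0.0013) between Ind-8 and tI-3 and -2.68 (adjusted p = 0.00062) between tI-3 and Con-3, the last a 6.43-fold difference. Col1a1 gave 0.43 (adjusted p = 0.14) between Ind-8 and Con-3 and -1.06 (adjusted p = 0.0047) between tI-3 and Con-3, Pdgfra 0.47 (adjusted p = 0.074) and -1.04 (adjusted p = 0.003), and Fn1 0.70 (adjusted p = 0.00032) and 0.28 (adjusted p = 0.048). The call of Fn1 between tI-3 and Con-3 was lost with the hybridization-control block, where 0 of the 10 markers were called higher. With limma, 1 of the 10 was lower and 2 were higher in Ind-8 than in Con-3, 1 was lower and 5 were higher in Ind-8 than in tI-3, and 3 were lower and 3 higher in tI-3 than in Con-3. The shares lower and higher were 10% and 20%, 10% and 50%, and 30% and 30% in these comparisons, beside 11.0% and 10.9%, 15.5% and 15.6%, and 15.1% and 10.2% of all probe sets. Whether these differences bear on the results was not tested. Of the markers of other cell types, 3 of 4 leukocyte, 3 of 4 epithelial and 2 of 3 endothelial markers had means under that percentile, and the 3 skeletal muscle markers had means of 4.33 to 6.04. The brightest endothelial marker, Kdr, at 6.15, and the brightest muscle marker, Des, at 6.04, lay near the median of all probe sets (6.17). Kdr was the endothelial marker called in each comparison. Of these 4 lists limma called 2 leukocyte and 1 endothelial marker lower in Ind-8 than in tI-3, 1 leukocyte and 1 endothelial marker higher in tI-3 than in Con-3, 1 endothelial marker lower in Ind-8 than in Con-3, and 0 others. In the fit with the block, 0 leukocyte and 0 endothelial markers were called in any comparison.

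Most members had a lower mean in the asymmetrically renewing Ind-8 cells than in both other lines. The change was negative for 51 of the 52 against Con-3 and for 50 against tI-3. The calls against tI-3 were less stable: limma gave 34 lower, and 5 with the hybridization-control block. On the 3 Ind-8 arrays the median over the 52 members was 9.10, 8.90 and 9.05, on the Con-3 arrays 9.53, 9.36 and 9.34, and on the tI-3 arrays 9.46 and 9.33. The Ind-8 values lay below all others. The members had means over the arrays from 6.70 to 12.11 and a median of 9.27, against a median of 6.17 over all probe sets. The dimmest member, Aspm, read 6.12 to 6.42 in Ind-8, and Smc2 read 6.26 on Ind-8 replicate 1, both near that median of all probe sets. Since RNA of whole cultures was measured, fewer cells in mitosis and less of each RNA per cell cannot be told apart.

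Between Ind-8 and Con-3, 42 of the 52 members were lower and 0 were higher with limma, at Benjamini-Hochberg adjusted p-values under 0.05 over all 22523 probe sets. Over all probe sets 11.0% were lower and 10.9% were higher in that comparison. At an unadjusted p under 0.05, limma gave 46 members lower and 0 higher, beside 17.9% and 15.5% of all probe sets. The median log2 change of the members was -0.55, a 1.46-fold difference, against -0.06 over all probe sets. The member changes ran from -1.06 to 0.00 with quartiles of -0.71 and -0.41. Every Ind-8 array lay below every Con-3 array for 46 members and above for 0, whereas 21.8% of all probe sets lay below and 16.2% above in this way. The rank product test, which the study used, ranks changes by size: at a pfp (percent of false positives) under 0.05 it called 13 members lower and 0 higher, with 1.44% of all probe sets lower and 2.15% higher, and at an unadjusted p under 0.05 it gave 42 lower and 0 higher, beside 9.9% and 11.0% of all probe sets. Without Con-3 replicate 3, limma called 38 members lower and 0 higher, beside 8.18% and 8.02% of all probe sets, with a median change of -0.54, all 38 being among the 42. The 4 that were lost were Plk1, Ndc80, Tpx2 and Espl1. With 1 array fewer, the rank product test called 2 members lower without that array, 3 without Con-3 replicate 1, 2 without Con-3 replicate 2 and 7 without Ind-8 replicate 1, beside 0.417%, 0.435%, 0.32% and 1.07% of all probe sets lower.

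Between Ind-8 and tI-3, which both carry the inducible p53, 34 of the 52 members were lower and 0 were higher with limma, beside 15.5% of all probe sets lower and 15.6% higher. At an unadjusted p under 0.05 limma gave 40 lower and 0 higher, beside 23.6% and 20.3% of all probe sets. The median change was -0.49 against -0.06 over all probe sets, and the members ran from -0.98 to 0.19. Every Ind-8 array lay below both tI-3 arrays for 43 members and above for 0, beside 34.5% of all probe sets below and 25.8% above. The rank product test called 0 members lower and 0 higher, beside 0.395% and 1.56% of all probe sets, and gave 27 lower and 0 higher at an unadjusted p under 0.05, beside 9.1% and 10.7%. Without Con-3 replicate 3, limma called 33 members lower, Smc2 being lost, beside 16.7% and 15.5% of all probe sets lower and higher, and without tI-3 replicate 1 it called 20, beside 10.2% and 11.7%. With that hybridization-control block, limma called 5 members lower (Cdc25b, Cdc25c, Cenpf, Kif11 and Aspm) and, in either direction, 3.14% of all probe sets against 31.1% without the block, with a median member change of -0.45. The other 29 calls were lost there, at adjusted p-values from 0.052 to 0.43. In that fit Ind-8 and tI-3 share no level of the block and are joined through Con-3 replicate 3 alone, and the members' standard errors were larger by a median factor of 1.71. A single array thus separates the controls' level from the difference between Ind-8 and tI-3.

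Between tI-3 and Con-3, which both divide symmetrically, 9 of the 52 members were lower and 3 were higher with limma. These are shares of 17.3% and 5.77%, beside 15.1% lower and 10.2% higher over all probe sets. The share of lower members was thus close to that background. Of the 9854 probe sets at least as bright as the dimmest member, 27.8% were lower and 11.7% were higher. Both member shares were under these. At an unadjusted p under 0.05, limma gave 14 lower and 5 higher, or 26.9% and 9.62%, beside 20.0% and 17.3% of all probe sets. The median change was -0.08 against 0.04 over all probe sets, and it was 0.02 once the arrays were quantile-normalized again, with 5 members lower and 5 higher in place of 9 and 3, beside 12.4% and 11.3% of all probe sets in that fit. Both tI-3 arrays lay below every Con-3 array for 21 members and above for 6, beside 25.9% and 25.7% of all probe sets. The rank product test called 0 members in either direction, beside 1.58% of all probe sets lower and 0.63% higher, and gave 5 lower and 2 higher at an unadjusted p under 0.05. Those 5 and 2 are shares of 9.62% and 3.85%, beside 10.5% and 8.0% of all probe sets, and so were not above the background. Without Con-3 replicate 3, limma called 7 lower and 1 higher, beside 13.5% and 10.2% of all probe sets, and the members lost were Cdc25b, Birc5, Kif2c and Hmmr. Without tI-3 replicate 1 it called 5 lower and 1 higher, beside 11.5% and 7.1% of all probe sets, and without tI-3 replicate 2 it called 4 lower and 1 higher, beside 8.48% and 5.25%. Neither count was above the background. With the hybridization-control block it called 5 lower and 2 higher, or 9.62% and 3.85%, beside 8.56% and 5.06% of all probe sets in that fit, which was close to the background. The 3 comparisons share arrays, so their counts are not independent of each other.

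**Figure D1:**
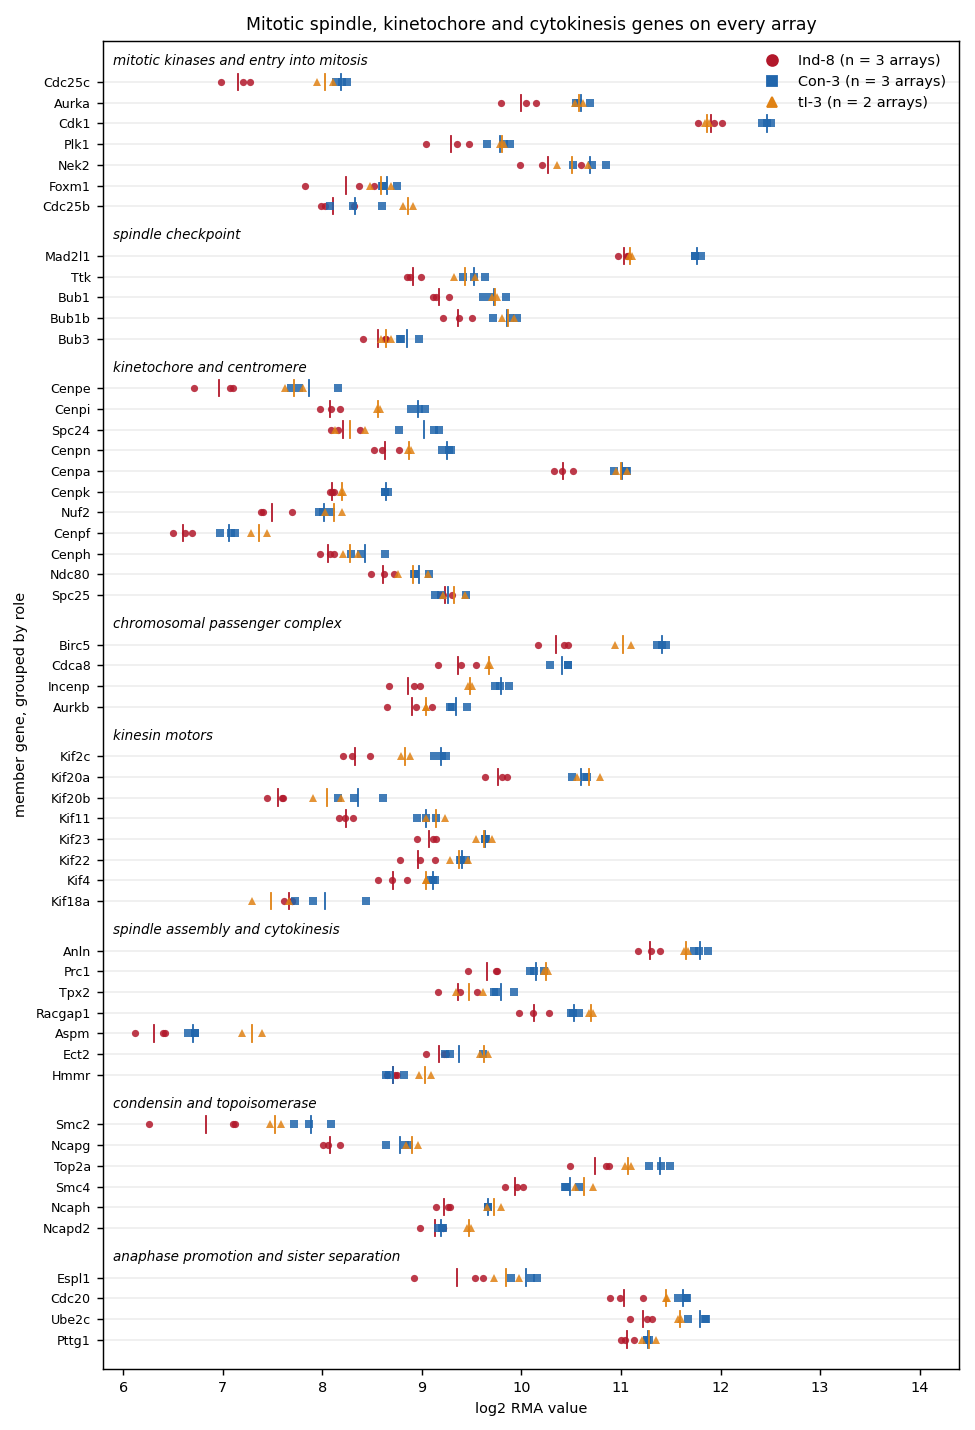
Log2 RMA values (x axis) of the 52 member genes (y axis, grouped by role) on each of the 8 arrays. Points are single arrays and vertical ticks are line means; Ind-8 lies to the left of Con-3 in nearly every gene, while tI-3 lies near Con-3 for some genes and near Ind-8 for others.

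The members' promoters were compared by sequence. RefSeq promoter windows of 300 bases, from 250 before to 50 after the start site in the mouse build GRCm38.p6, were found for 44 of the 52 members, 4 of which had more than 1 window. Aurkb, Cdc25c, Foxm1, Incenp, Kif20a, Smc4, Spc24 and Tpx2 had none. The letters searched, on both strands, were TTTGAA with its variants TTTAAA and also TTCGAA, which are forms of the cell cycle homology region (CHR) bound by the MuvB core, and CCAAT, the box bound by NF-Y. TTTGAA was in 34 of the 49 member windows (69.4%), against 17.9% of all 32851 windows of the same length. Within 50 bases of the start site it was in 31 of the 49 (63.3%) and in 4.9% of all windows. CCAAT was in 79.6% of the member windows and 37.4% of all, and at least 2 copies were in 44.9% and 11.7%. TTTAAA was in 18.4% and 13.2%, and TTCGAA in 8.2% and 1.6%. CCAAT together with any of the 3 CHR forms was in 67.3% of the member windows and 11.3% of all. Windows were counted singly, and those of 1 gene can overlap. In Bub3, Ect2 and Prc1 the same TTTGAA and CCAAT sites were counted in more than 1 window. A match describes the letters only.

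Windows of 6 members are shown, with the matches in capitals: of the genes with 1 window, the 4 with the lowest change between Ind-8 and Con-3 and the 2 with the smallest. The Smc2 window (chr4:52438971-52439270 on the plus strand) has TTTGAA on the opposite strand at positions -145 and 27 from the start site, and 1 CCAAT. That of Birc5 (chr11:117848987-117849286 on the plus strand) has a single TTTAAA, at position -220, and no TTTGAA or CCAAT in these 300 bases. In Cdca8 (chr4:124936868-124937167 on the minus strand) 4 CCAAT boxes on the opposite strand, of which the last overlaps TTTGAA, lie at positions -85, -51, -11 and 19. The Cenpe window (chr3:135212313-135212612 on the plus strand) has CCAAT at position -12 and TTTAAA at position 15. Hmmr (chr11:40733388-40733687 on the minus strand) and Spc25 (chr2:69206164-69206463 on the minus strand), whose levels did not pass the test between Ind-8 and Con-3, also hold TTTGAA, at positions 9 and 25, with 5 and 2 CCAAT boxes.
Smc2: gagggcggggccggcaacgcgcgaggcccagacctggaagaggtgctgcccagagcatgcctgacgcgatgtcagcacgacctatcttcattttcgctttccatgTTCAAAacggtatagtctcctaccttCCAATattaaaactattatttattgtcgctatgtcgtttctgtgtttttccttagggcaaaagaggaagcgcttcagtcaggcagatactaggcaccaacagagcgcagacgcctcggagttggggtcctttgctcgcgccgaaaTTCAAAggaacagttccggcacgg
Birc5: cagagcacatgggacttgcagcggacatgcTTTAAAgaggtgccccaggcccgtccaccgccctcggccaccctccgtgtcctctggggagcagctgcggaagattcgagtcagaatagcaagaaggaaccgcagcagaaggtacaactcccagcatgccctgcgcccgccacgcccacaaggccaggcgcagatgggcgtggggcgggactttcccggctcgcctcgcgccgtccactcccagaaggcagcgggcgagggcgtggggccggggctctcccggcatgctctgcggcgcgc
Cdca8: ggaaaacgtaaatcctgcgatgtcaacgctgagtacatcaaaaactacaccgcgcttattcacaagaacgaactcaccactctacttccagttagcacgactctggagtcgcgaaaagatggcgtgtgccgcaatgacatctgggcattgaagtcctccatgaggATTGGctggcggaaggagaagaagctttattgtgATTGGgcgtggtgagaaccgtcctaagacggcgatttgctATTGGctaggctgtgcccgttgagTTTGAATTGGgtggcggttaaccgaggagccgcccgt
Cenpe: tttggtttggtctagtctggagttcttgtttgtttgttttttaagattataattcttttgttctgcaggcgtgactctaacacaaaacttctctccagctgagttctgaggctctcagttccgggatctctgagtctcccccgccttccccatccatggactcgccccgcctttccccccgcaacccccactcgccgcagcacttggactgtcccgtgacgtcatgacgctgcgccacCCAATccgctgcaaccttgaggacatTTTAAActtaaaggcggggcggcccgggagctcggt
Hmmr: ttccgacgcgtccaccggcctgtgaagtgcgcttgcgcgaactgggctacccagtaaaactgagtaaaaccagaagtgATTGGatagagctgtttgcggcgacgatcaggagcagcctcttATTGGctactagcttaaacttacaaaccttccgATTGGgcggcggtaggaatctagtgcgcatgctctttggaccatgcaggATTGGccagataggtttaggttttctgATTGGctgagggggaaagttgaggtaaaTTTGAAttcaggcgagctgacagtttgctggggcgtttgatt
Spc25: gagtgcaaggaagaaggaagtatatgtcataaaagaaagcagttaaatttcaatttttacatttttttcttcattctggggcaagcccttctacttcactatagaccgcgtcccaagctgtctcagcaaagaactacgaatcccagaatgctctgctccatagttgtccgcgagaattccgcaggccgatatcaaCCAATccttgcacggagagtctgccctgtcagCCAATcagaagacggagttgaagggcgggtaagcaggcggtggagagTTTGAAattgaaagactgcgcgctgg

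**Figure D2:**
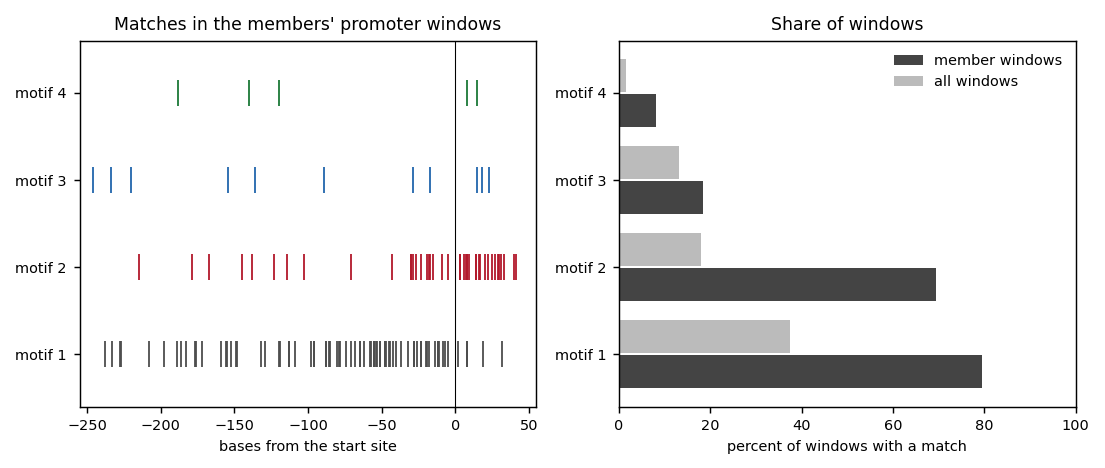
Left, distance from the start site in bases (x axis) of each match in the 49 promoter windows of the members; motif 1 is CCAAT, motif 2 TTTGAA, motif 3 TTTAAA and motif 4 TTCGAA. Right, percent of windows with a match among the member windows (dark bars) and among all 32851 windows (light bars), with 69.4% against 17.9% for motif 2.

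The 7 genes of mitotic kinases and entry into mitosis had 4 members lower in Ind-8 than in Con-3, 4 lower than in tI-3, and 1 lower and 1 higher in tI-3 than in Con-3 with limma. As shares lower and higher these were 57.1% and 0%, 57.1% and 0%, and 14.3% and 14.3%, beside 11.0% and 10.9%, 15.5% and 15.6%, and 15.1% and 10.2% of all probe sets, the last pair being close to the background. Cdc25c, the phosphatase that activates Cdk1 at the entry into mitosis, read 7.20, 6.98 and 7.28 in Ind-8, 8.13, 8.25 and 8.20 in Con-3, and 8.10 and 7.95 in tI-3. Its Ind-8 arrays lay below all others, at a log2 change of -1.04 ± 0.10 (SE, adjusted p = 0.00011) against Con-3, a 2.05-fold difference, and at -0.87 ± 0.11 (SE, adjusted p = 0.00054) against tI-3 with limma. Aurka, the Aurora kinase of the spindle poles, read 10.04, 9.79 and 10.14 in Ind-8, 10.57, 10.55 and 10.69 in Con-3, and 10.62 and 10.54 in tI-3. Here too Ind-8 lay below both other lines, which overlapped each other; the limma changes were -0.61 ± 0.10 (SE, adjusted p = 0.0027) and -0.59 ± 0.12 (SE, adjusted p = 0.0054, and 0.25 with the hybridization-control block). Cdk1, the kinase that drives mitosis, was among the brightest members, at 12.01, 11.77 and 11.93 in Ind-8, 12.47, 12.42 and 12.51 in Con-3, and 11.89 and 11.85 in tI-3. In this gene tI-3 overlapped Ind-8 and both lay below Con-3, at a log2 change of -0.56 ± 0.09 (SE, adjusted p = 0.0018) for Ind-8 and -0.60 ± 0.10 (SE, adjusted p = 0.002) for tI-3 with limma. Cdc25b, a phosphatase that starts Cdk1 activation in G2, read 8.31, 7.99 and 8.03 in Ind-8, 8.30, 8.60 and 8.08 in Con-3, and 8.91 and 8.81 in tI-3. Its tI-3 arrays were above all others: Ind-8 was lower than tI-3 at a log2 change of -0.75 ± 0.15 (SE, adjusted p = 0.0059), tI-3 was higher than Con-3 by 0.53 ± 0.15 (SE, adjusted p = 0.029) with limma, and Ind-8 and Con-3 overlapped. The call of Cdc25b between tI-3 and Con-3 was lost in 4 of 19 refits, 1 of them that without Con-3 replicate 3 (adjusted p = 0.071), in a range from 0.01 to 0.14. Plk1, the Polo-like kinase, changed by -0.50 (adjusted p = 0.014) between Ind-8 and Con-3 with limma, a call lost in 2 of 19 refits, at most at an adjusted p of 0.053. Nek2, a centrosomal kinase, and Foxm1, a transcription factor of G2 and M phase genes, gave -0.43 (adjusted p = 0.082) and -0.41 (adjusted p = 0.095) in the same limma comparison.

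In the spindle checkpoint, which delays anaphase until kinetochores are attached, 4 of 5 members were lower in Ind-8 than in Con-3, 3 were lower than in tI-3, and 1 was lower in tI-3 than in Con-3. Of the 5, 80% and 0%, 60% and 0%, and 20% and 0% were lower and higher, beside 11.0% and 10.9%, 15.5% and 15.6%, and 15.1% and 10.2% of all probe sets. Mad2l1, which inhibits the anaphase activator Cdc20, read 10.97, 11.06 and 11.07 in Ind-8, 11.74, 11.74 and 11.81 in Con-3, and 11.11 and 11.08 in tI-3. Con-3 was far above both lines with p53, which differed from each other by -0.06 ± 0.09 (SE): the limma changes against Con-3 were -0.73 ± 0.08 (SE, adjusted p = 0.00023) for Ind-8 and -0.67 ± 0.09 (SE, adjusted p = 0.00058) for tI-3. Ttk, the checkpoint kinase Mps1, read 8.99, 8.88 and 8.85 in Ind-8, 9.64, 9.41 and 9.53 in Con-3, and 9.54 and 9.32 in tI-3. Bub1, a kinase that recruits checkpoint proteins to the kinetochore, read 9.27, 9.14 and 9.11 in Ind-8, 9.85, 9.70 and 9.62 in Con-3, and 9.76 and 9.71 in tI-3. In both genes Ind-8 lay below the other lines, which overlapped. Against Con-3 the limma changes were -0.62 ± 0.10 (SE, adjusted p = 0.0017) for Ttk and -0.55 ± 0.09 (SE, adjusted p = 0.0025) for Bub1, and against tI-3 they were -0.52 ± 0.11 (SE, adjusted p = 0.0067) and -0.56 ± 0.10 (SE, adjusted p = 0.0037, and 0.054 with the hybridization-control block). The call of Ttk against tI-3 was lost in 2 of 19 refits at adjusted p-values up to 0.18. The second value profile of Ttk changed by -0.71 against Con-3 (limma adjusted p = 0.00044). Bub1b, which encodes the BubR1 protein, changed by -0.49 (adjusted p = 0.0081) between Ind-8 and Con-3, and Bub3, its binding partner, gave -0.29 (adjusted p = 0.062), with limma.

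Of the 11 kinetochore and centromere genes, 10 were lower in Ind-8 than in Con-3, 5 were lower than in tI-3, and 4 were lower in tI-3 than in Con-3. The kinetochore shares were 90.9% and 0%, 45.5% and 0%, and 36.4% and 0% lower and higher, beside 11.0% and 10.9%, 15.5% and 15.6%, and 15.1% and 10.2% of all probe sets. Cenpe, a kinesin that moves chromosomes to the spindle equator, read 6.71, 7.07 and 7.10 in Ind-8, 8.16, 7.69 and 7.76 in Con-3, and 7.80 and 7.63 in tI-3. Ind-8 was below both other lines, with limma changes of -0.91 ± 0.15 (SE, adjusted p = 0.0018) and -0.75 ± 0.16 (SE, adjusted p = 0.0077), and its replicate 1 was lowest. Cenpi, a subunit of the constitutive centromere network, read 8.18, 7.97 and 8.09 in Ind-8, 9.03, 8.97 and 8.89 in Con-3, and 8.55 and 8.58 in tI-3. None of the 3 lines overlapped, and tI-3 lay between the others: the limma changes were -0.88 ± 0.09 (SE, adjusted p = 0.00014) for Ind-8 against Con-3 and -0.40 ± 0.10 (SE, adjusted p = 0.014) for tI-3 against Con-3. Spc24, a subunit of the Ndc80 complex that binds microtubules, read 8.16, 8.08 and 8.37 in Ind-8, 8.77, 9.17 and 9.12 in Con-3, and 8.43 and 8.13 in tI-3. The tI-3 arrays overlapped those of Ind-8, and both lines were below Con-3, at a log2 change of -0.82 ± 0.13 (SE, adjusted p = 0.0019) and -0.75 ± 0.15 (SE, adjusted p = 0.0048) with limma. The other subunits of that complex differed: between Ind-8 and Con-3, limma gave -0.52 (adjusted p = 0.0059) for Nuf2, -0.36 (adjusted p = 0.034) for Ndc80 and -0.03 (adjusted p = 0.89) for Spc25. Of 19 refits, the call of Ndc80 was lost in 6 (adjusted p from 0.019 to 0.12), that of Cenpe against tI-3 in 2 (adjusted p from 0.003 to 0.11), and those of Cenpi and Spc24 between tI-3 and Con-3 in 4 (adjusted p from 0.012 to 0.14) and 1 (adjusted p from 0.0024 to 0.062).

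Cenpa, the histone H3 variant of centromeres, was lower in Ind-8 than in Con-3 at a log2 change of -0.59 ± 0.09 (SE) and lower than in tI-3 at -0.59 ± 0.10 (SE, adjusted p = 0.0025, and 0.13 with the hybridization-control block). Cenpk and Cenpn, subunits of the same network as Cenpi, were lower in tI-3 than in Con-3, at a log2 change of -0.44 (adjusted p = 0.0043) and -0.38 (adjusted p = 0.021) with limma. The second value profile of Cenpk gave -0.33 for tI-3 against Con-3 (adjusted p = 0.086) and -0.28 for Ind-8 against Con-3 (adjusted p = 0.12, limma), so its 2 profiles fell on different sides of the threshold. Cenpf, a large protein of the outer kinetochore, was lower in Ind-8 than in tI-3 at a log2 change of -0.76 ± 0.10 (SE, adjusted p = 0.00074) with limma, and Cenph changed by -0.38 (adjusted p = 0.03) between Ind-8 and Con-3. That call of Cenph was lost in 5 (adjusted p from 0.013 to 0.092) of 19 refits, and the call of Cenpn between tI-3 and Con-3 in 5 (adjusted p from 0.015 to 0.11).

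The chromosomal passenger complex, which corrects attachments of the spindle and directs cytokinesis, had all 4 members lower in Ind-8 than in Con-3 with limma, 2 lower than in tI-3 and 2 lower in tI-3 than in Con-3. Lower and higher shares were 100% and 0%, 50% and 0%, and 50% and 0%, beside 11.0% and 10.9%, 15.5% and 15.6%, and 15.1% and 10.2% of all probe sets. Its median change between Ind-8 and Con-3 was -0.99. Birc5, which encodes survivin, read 10.47, 10.16 and 10.42 in Ind-8, 11.45, 11.36 and 11.41 in Con-3, and 11.10 and 10.94 in tI-3. Cdca8, which encodes borealin, read 9.40, 9.17 and 9.54 in Ind-8, 10.29, 10.47 and 10.47 in Con-3, and 9.68 and 9.67 in tI-3. In both genes the 3 lines were apart in the order Ind-8, tI-3, Con-3. For Birc5 the limma change was -1.06 ± 0.10 (SE, adjusted p = 0.00011) between Ind-8 and Con-3, -0.67 ± 0.11 (SE, adjusted p = 0.0024, and 0.11 with the hybridization-control block) between Ind-8 and tI-3 and -0.39 ± 0.11 (SE, adjusted p = 0.032) between tI-3 and Con-3. The last of these calls was lost in 7 of 19 refits, among them each that left out an array of Con-3 or tI-3 (adjusted p = 0.059 without Con-3 replicate 3, in a range from 0.016 to 0.21). For Cdca8 the limma changes were -1.04 ± 0.11 (SE, adjusted p = 0.00017) between Ind-8 and Con-3 and -0.74 ± 0.12 (SE, adjusted p = 0.0018) between tI-3 and Con-3, and that between Ind-8 and tI-3 did not pass (adjusted p = 0.08). Incenp, the scaffold of the complex, read 8.98, 8.67 and 8.92 in Ind-8, 9.88, 9.79 and 9.74 in Con-3, and 9.47 and 9.51 in tI-3. It showed the same order of lines without overlap, and Ind-8 was lower than Con-3 at a log2 change of -0.94 ± 0.10 (SE, adjusted p = 0.00019) and lower than tI-3 at -0.63 ± 0.11 (SE, adjusted p = 0.0032, and 0.081 with the hybridization-control block) with limma. Aurkb, the kinase of the complex, changed by -0.44 ± 0.12 (SE, adjusted p = 0.021) between Ind-8 and Con-3, and this call was lost in 2 of 19 refits, at adjusted p-values up to 0.07.

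Among the 8 kinesin motors, 7 were lower in Ind-8 than in Con-3, 7 were lower than in tI-3, and 1 was lower in tI-3 than in Con-3. Kinesin shares lower and higher were 87.5% and 0%, 87.5% and 0%, and 12.5% and 0%, beside 11.0% and 10.9%, 15.5% and 15.6%, and 15.1% and 10.2% of all probe sets, and the share lower between tI-3 and Con-3 was close to the background. Kif2c, which takes apart microtubules at kinetochores, read 8.21, 8.30 and 8.48 in Ind-8, 9.20, 9.12 and 9.25 in Con-3, and 8.88 and 8.79 in tI-3. The lines did not overlap and tI-3 lay between, with limma changes of -0.86 ± 0.10 (SE, adjusted p = 0.00023) for Ind-8 against Con-3, -0.51 ± 0.11 (SE, adjusted p = 0.0069, and 0.25 with the hybridization-control block) for Ind-8 against tI-3 and -0.35 ± 0.11 (SE, adjusted p = 0.035) for tI-3 against Con-3. That last call was lost in 8 of 19 refits, again whenever an array of Con-3 or tI-3 was left out (adjusted p = 0.078 without Con-3 replicate 3, in a range from 0.029 to 0.19). Kif20a, a motor of the central spindle, read 9.86, 9.63 and 9.80 in Ind-8, 10.66, 10.51 and 10.64 in Con-3, and 10.79 and 10.56 in tI-3. Kif20b, a relative that acts in cytokinesis, read 7.60, 7.61 and 7.44 in Ind-8, 8.61, 8.16 and 8.31 in Con-3, and 8.19 and 7.91 in tI-3. Ind-8 lay below the other lines in both genes, and tI-3 and Con-3 overlapped: limma gave -0.84 ± 0.10 (SE, adjusted p = 0.00038) and -0.91 ± 0.11 (SE, adjusted p = 0.00043, and 0.052 with the hybridization-control block) for Kif20a and -0.81 ± 0.13 (SE, adjusted p = 0.0016) and -0.50 ± 0.14 (SE, adjusted p = 0.025) for Kif20b. The call of Kif20b against tI-3 was lost in 3 (adjusted p from 0.0053 to 0.25) of 19 refits. Kif11, the motor that pushes the spindle poles apart, was lower in Ind-8 than in Con-3, at a log2 change of -0.81 (adjusted p = 0.0003), and lower than in tI-3, at -0.90 (adjusted p = 0.0003) (limma). Kif23, a subunit of centralspindlin, changed by -0.57 (adjusted p = 0.0016) and -0.55 (adjusted p = 0.0033, and 0.12 with the hybridization-control block). Kif18a, which limits microtubule length, was the member of this group that did not pass in any comparison, with -0.35 (adjusted p = 0.17), 0.19 (adjusted p = 0.47) and -0.54 (adjusted p = 0.06) in the limma fits of Ind-8 against Con-3, Ind-8 against tI-3 and tI-3 against Con-3.

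**Figure D3:**
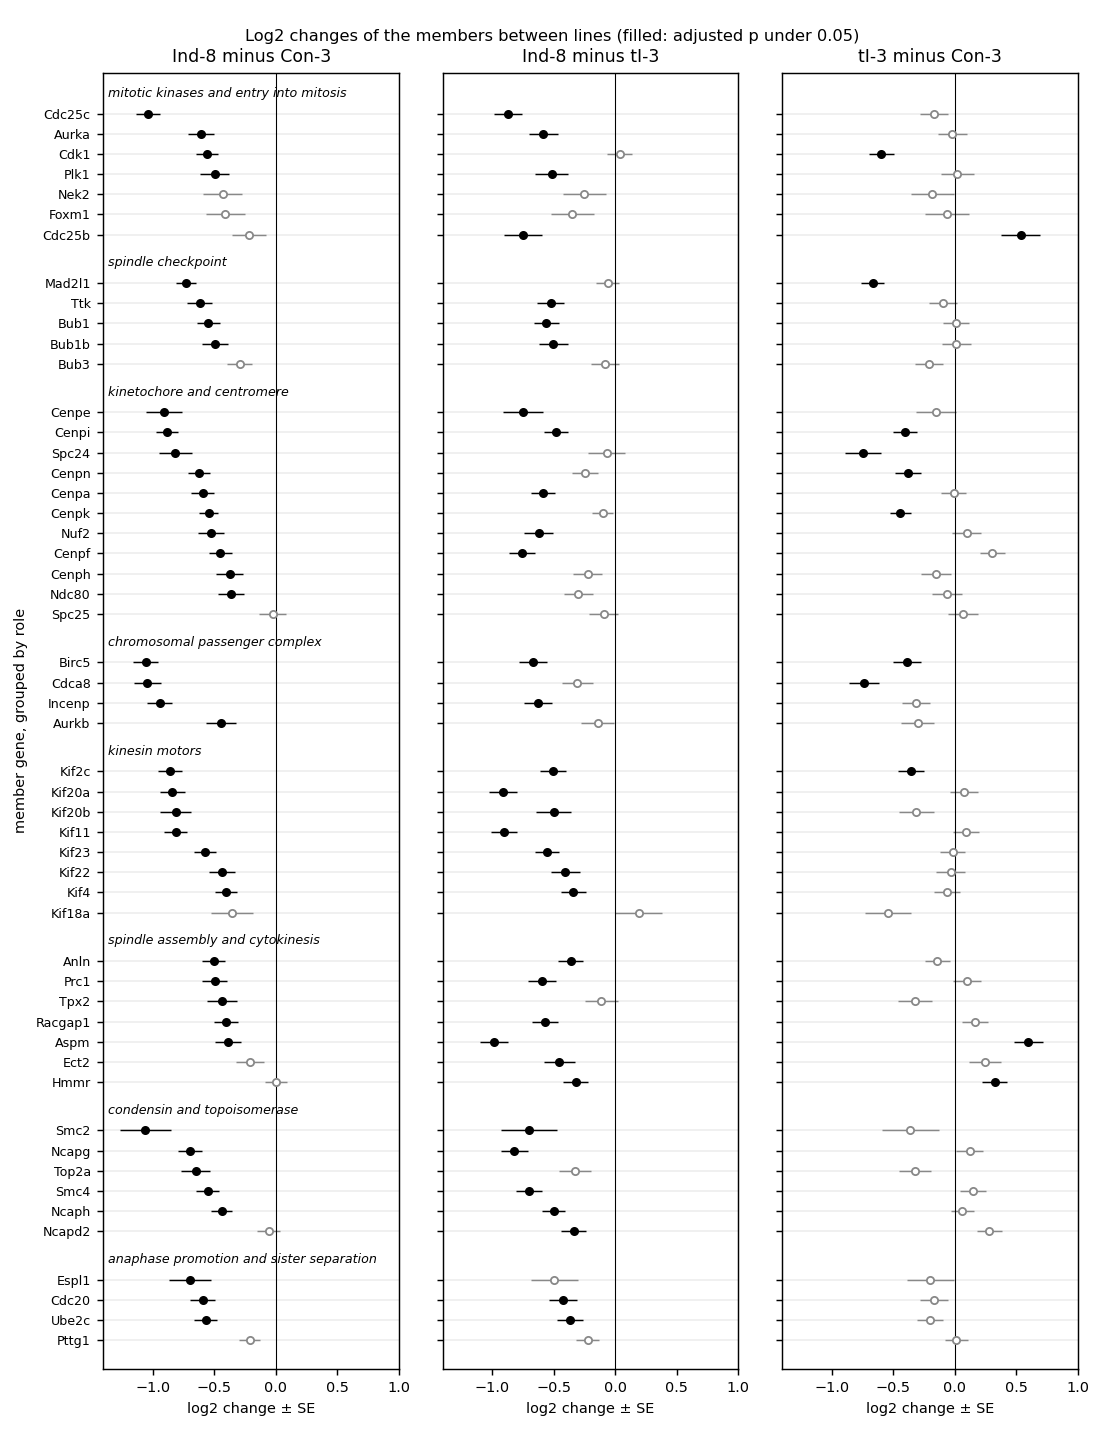
Log2 changes with their standard errors (x axis) of the 52 members (y axis, grouped by role) in the 3 comparisons. Filled points passed limma at an adjusted p under 0.05; 42 are filled in the left panel, 34 in the middle and 12 in the right, and in the right panel 9 of the 12 are below 0.

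The 7 spindle assembly and cytokinesis genes had a median change of -0.41 between Ind-8 and Con-3. With limma, 5 of them were lower in Ind-8 than in Con-3, 6 were lower than in tI-3, and 2 were higher in tI-3 than in Con-3. These make 71.4% and 0%, 85.7% and 0%, and 0% and 28.6% lower and higher, beside 11.0% and 10.9%, 15.5% and 15.6%, and 15.1% and 10.2% of all probe sets. Anln, the actin-binding protein anillin of the cleavage furrow, read 11.31, 11.17 and 11.39 in Ind-8, 11.87, 11.73 and 11.78 in Con-3, and 11.67 and 11.63 in tI-3. Prc1, which bundles microtubules of the central spindle, read 9.74, 9.46 and 9.76 in Ind-8, 10.09, 10.13 and 10.23 in Con-3, and 10.27 and 10.22 in tI-3. Ind-8 was below both other lines in each of them; against Con-3 the limma changes were -0.51 ± 0.09 (SE, adjusted p = 0.0032) and -0.50 ± 0.10 (SE, adjusted p = 0.0063), and against tI-3 they were -0.36 ± 0.10 (SE, adjusted p = 0.023) and -0.59 ± 0.11 (SE, adjusted p = 0.0042, and 0.21 with the hybridization-control block). The call of Anln against tI-3 was lost in 4 (adjusted p from 0.009 to 0.28) of 19 refits. Tpx2, which activates Aurora A on spindle microtubules, read 9.55, 9.16 and 9.38 in Ind-8, 9.93, 9.73 and 9.75 in Con-3, and 9.61 and 9.34 in tI-3. Its tI-3 arrays overlapped Ind-8, and the change between Ind-8 and Con-3 was -0.44 ± 0.12 (SE, adjusted p = 0.027) with limma, a call lost in 5 of 19 refits (adjusted p = 0.054 without Con-3 replicate 3, in a range from 0.0075 to 0.1).

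Aspm and Hmmr were highest in tI-3. Aspm, a spindle pole protein, read 6.12, 6.42 and 6.40 in Ind-8, 6.72, 6.72 and 6.65 in Con-3, and 7.39 and 7.20 in tI-3. The 3 lines did not overlap, with Ind-8 lowest: limma gave -0.39 ± 0.10 (SE, adjusted p = 0.024) for Ind-8 against Con-3, -0.98 ± 0.12 (SE, adjusted p = 0.00033) for Ind-8 against tI-3 and 0.60 ± 0.12 (SE, adjusted p = 0.0043) for tI-3 against Con-3. Hmmr, a microtubule-binding protein that is also a hyaluronan receptor, read 8.65, 8.73 and 8.75 in Ind-8, 8.82, 8.67 and 8.64 in Con-3, and 9.10 and 8.97 in tI-3. Ind-8 and Con-3 overlapped and both lay below tI-3, at a log2 change of -0.32 ± 0.10 (SE, adjusted p = 0.034) for Ind-8, and tI-3 was higher than Con-3 by 0.32 ± 0.10 (SE, adjusted p = 0.038) with limma. The former call was lost in 7 of 19 refits and the latter in 9, with adjusted p-values of the latter from 0.011 to 0.19 (0.088 without Con-3 replicate 3). Racgap1, the other subunit of centralspindlin, was lower in Ind-8 than in Con-3 at a log2 change of -0.41 (adjusted p = 0.012) and lower than in tI-3 at -0.57 (adjusted p = 0.0039, and 0.13 with the hybridization-control block), and Ect2, the exchange factor that activates RhoA at the cleavage site, gave -0.21 (adjusted p = 0.24) and -0.45 (adjusted p = 0.024) (limma). Between Ind-8 and Con-3 the calls of Aspm and Racgap1 were lost in 3 (adjusted p from 0.02 to 0.079) and 1 (adjusted p from 0.0058 to 0.051) of 19 refits, and against tI-3 that of Ect2 in 4 (adjusted p from 0.0083 to 0.12).

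Condensin and topoisomerase genes, whose products compact and untangle chromosomes, had 5 of 6 members lower in Ind-8 than in Con-3, 5 lower than in tI-3 and 0 in either direction between tI-3 and Con-3 with limma. In shares, 83.3% and 0%, 83.3% and 0%, and 0% and 0% were lower and higher, beside 11.0% and 10.9%, 15.5% and 15.6%, and 15.1% and 10.2% of all probe sets. Smc2, a core subunit of both condensins, read 6.26, 7.10 and 7.12 in Ind-8, 8.08, 7.71 and 7.87 in Con-3, and 7.58 and 7.47 in tI-3. Ind-8 lay below the other lines, at a log2 change of -1.06 ± 0.20 (SE, adjusted p = 0.0049) against Con-3 and -0.70 ± 0.23 (SE, adjusted p = 0.041) against tI-3 with limma, and Ind-8 replicate 1 was lower than the other Ind-8 arrays; its standard errors were the largest of the members. Ncapg, a subunit of condensin I, read 8.0, 8.06 and 8.18 in Ind-8, 8.88, 8.64 and 8.83 in Con-3, and 8.96 and 8.84 in tI-3. Top2a, the topoisomerase of dividing cells, read 10.88, 10.49 and 10.85 in Ind-8, 11.29, 11.40 and 11.49 in Con-3, and 11.10 and 11.04 in tI-3. Ind-8 was below both other lines in each; for Ncapg limma gave -0.70 ± 0.10 (SE, adjusted p = 0.00082) and -0.82 ± 0.11 (SE, adjusted p = 0.00061, and 0.065 with the hybridization-control block), with Con-3 and tI-3 overlapping, and for Top2a -0.65 ± 0.12 (SE, adjusted p = 0.0032) and -0.33 ± 0.13 (SE, adjusted p = 0.077), the last not passing. Smc4 and Ncaph, further condensin subunits, were lower in Ind-8 than in Con-3 at a log2 change of -0.55 (adjusted p = 0.0025) and -0.44 (adjusted p = 0.005) (limma). Ncapd2, another subunit of condensin I, did not pass there, with -0.06 (adjusted p = 0.71), but was lower in Ind-8 than in tI-3, at a log2 change of -0.34 (adjusted p = 0.031). The calls of Smc2 and Ncapd2 against tI-3 were lost in 7 (adjusted p from 0.017 to 0.36) and 5 (adjusted p from 0.0093 to 0.37) of 19 refits.

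In the group of anaphase promotion and sister separation, 3 of 4 members were lower in Ind-8 than in Con-3, 2 were lower than in tI-3, and 0 were called between tI-3 and Con-3 with limma. The group's shares were 75% and 0%, 50% and 0%, and 0% and 0% lower and higher, beside 11.0% and 10.9%, 15.5% and 15.6%, and 15.1% and 10.2% of all probe sets. Espl1, which encodes separase, the protease that cleaves cohesin, read 9.61, 8.92 and 9.54 in Ind-8, 9.89, 10.10 and 10.15 in Con-3, and 9.72 and 9.98 in tI-3. Ind-8 replicate 2 was much the lowest array, and Ind-8 lay below both other lines, at a log2 change of -0.69 ± 0.17 (SE, adjusted p = 0.015) against Con-3 with limma; the call was lost in 2 of 19 refits, with an adjusted p of 0.056 without Con-3 replicate 3 and a range from 0.01 to 0.056. Cdc20, which activates the anaphase-promoting complex, read 11.00, 10.89 and 11.22 in Ind-8, 11.57, 11.65 and 11.66 in Con-3, and 11.45 and 11.47 in tI-3. Ube2c, the ubiquitin-conjugating enzyme of that complex, read 11.27, 11.09 and 11.31 in Ind-8, 11.85, 11.68 and 11.85 in Con-3, and 11.60 and 11.58 in tI-3. All 3 lines were apart in both genes, in the order Ind-8, tI-3, Con-3, and the limma changes against Con-3 were -0.59 ± 0.10 (SE, adjusted p = 0.0023) and -0.57 ± 0.09 (SE, adjusted p = 0.0021), with -0.42 ± 0.11 (SE, adjusted p = 0.017) and -0.37 ± 0.10 (SE, adjusted p = 0.025) against tI-3. Against tI-3 the calls of Cdc20 and Ube2c were lost in 4 (adjusted p from 0.0078 to 0.33) and 4 (adjusted p from 0.011 to 0.43) of 19 refits. Pttg1, which encodes securin, the inhibitor of separase, gave -0.21 (adjusted p = 0.11) against Con-3, and its second value profile -0.25 (adjusted p = 0.056, limma).

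The members also varied between arrays of a line. Ind-8 replicate 2 was the lowest of the 3 Ind-8 arrays for 35 of the 52 members, beside 36.5% of all probe sets, and the first tI-3 array was the higher of the pair for 41, beside 54.9% of all probe sets. The median SD of the members was 0.133 in Ind-8, 0.081 in Con-3 and 0.0823 in tI-3, against 0.123, 0.105 and 0.0837 for all probe sets at least as bright as the dimmest member. Direction went with brightness in 2 of the 3 comparisons: among the 9854 probe sets of that brightness, limma called 17.4% lower and 17.9% higher in Ind-8 than in Con-3, 10.6% lower and 27.2% higher in Ind-8 than in tI-3, and 27.8% lower and 11.7% higher in tI-3 than in Con-3. The background shares beside the role groups and gene lists are those of all probe sets and were not matched for brightness.

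Of 4 cyclin genes, Ccna2, Ccnb1 and Ccnb2 encode partners of Cdk1 and Ccnf encodes an F-box protein. With limma 3 of the 4 were lower in Ind-8 than in Con-3, 2 lower than in tI-3 and 1 lower in tI-3 than in Con-3, and Ccnf passed in none. The percentages lower and higher were 75% and 0%, 50% and 0%, and 25% and 0%, beside 11.0% and 10.9%, 15.5% and 15.6%, and 15.1% and 10.2% of all probe sets. Ccna2 read 10.40, 10.28 and 10.48 in Ind-8, 11.04, 11.07 and 11.19 in Con-3, and 11.13 and 11.03 in tI-3. Ccnb1 read 10.78, 10.69 and 10.72 in Ind-8, 11.29, 11.10 and 11.22 in Con-3, and 11.21 and 11.06 in tI-3, and Ccnb2 read 9.94, 9.92 and 10.04 in Ind-8, 10.49, 10.60 and 10.47 in Con-3, and 9.91 and 9.83 in tI-3. Ind-8 lay below Con-3 in these 3 genes, and tI-3 overlapped Con-3 in Ccna2 and Ccnb1 but was below every other array in Ccnb2. The limma changes between Ind-8 and Con-3 were -0.71 ± 0.09 (SE, adjusted p = 0.00054), -0.47 ± 0.09 (SE, adjusted p = 0.0044) and -0.55 ± 0.09 (SE, adjusted p = 0.0014). Between tI-3 and Con-3 they were -0.02 (adjusted p = 0.91), -0.07 (adjusted p = 0.67) and -0.65 (adjusted p = 0.0009).

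**Figure D4:**
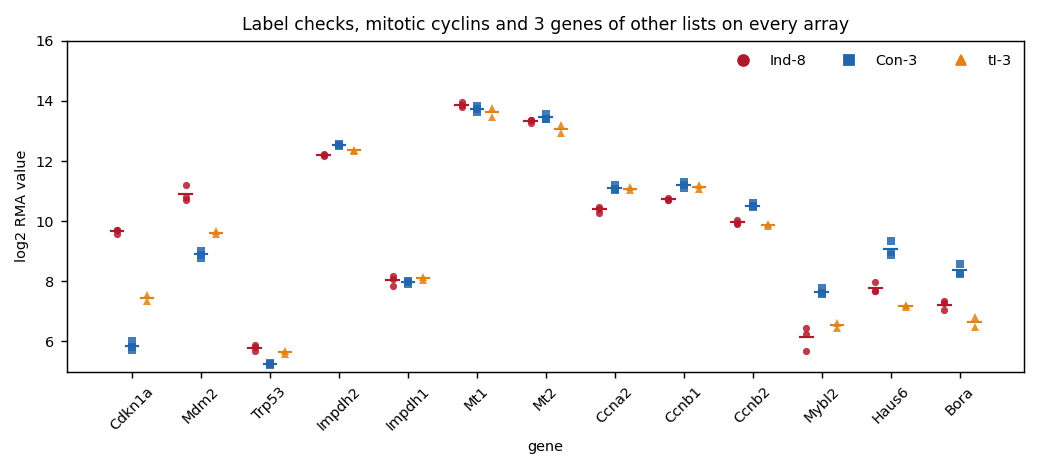
Log2 RMA values (y axis) of the label check genes, 3 mitotic cyclins, Mybl2, Haus6 and Bora (x axis) on each array, with line means as bars. Cdkn1a and Mdm2 are highest in Ind-8 and lowest in Con-3, and Ccnb2, Haus6 and Bora are lowest in tI-3.

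Other genes of the same machinery were counted from lists. Of 34 other kinetochore and centromere genes, 20 were lower and 0 higher in Ind-8 than in Con-3 with limma, 9 were lower and 1 higher in Ind-8 than in tI-3, and 7 were lower and 0 higher in tI-3 than in Con-3, with medians of -0.41, -0.17 and -0.21. In that order 58.8% and 0%, 26.5% and 2.94%, and 20.6% and 0% were lower and higher, beside 11.0% and 10.9%, 15.5% and 15.6%, and 15.1% and 10.2% of all probe sets. Cenpw and Cenpu, subunits of the constitutive centromere network, were lower in Ind-8 than in Con-3 at a log2 change of -0.77 (adjusted p = 0.00022) and -0.71 (adjusted p = 0.00066). In tI-3 they were also below Con-3, at a log2 change of -1.18 (adjusted p = 3.6e-05) and -0.44 (adjusted p = 0.012) with limma. Only 1 gene of this list was called lower in tI-3 than in Con-3 with the hybridization-control block. That call of Cenpw, Cenpu or both was thus lost there. Cenpw was higher in Ind-8 than in tI-3, by 0.40 (adjusted p = 0.011) with limma. This call was lost with the block, where 0 genes of the list were called higher.

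Of 44 other spindle, centrosome and cytokinesis genes, 22 were lower and 2 higher in Ind-8 than in Con-3, 19 lower and 4 higher in Ind-8 than in tI-3, and 8 lower and 5 higher in tI-3 than in Con-3, with medians of -0.38, -0.21 and -0.13. As shares lower and higher these are 50% and 4.55%, 43.2% and 9.09%, and 18.2% and 11.4%, beside 11.0% and 10.9%, 15.5% and 15.6%, and 15.1% and 10.2% of all probe sets, so those between tI-3 and Con-3 were close to the background. Haus6, a subunit of the augmin complex that branches spindle microtubules, changed by -1.30 (adjusted p = 0.00016) between Ind-8 and Con-3 and -1.90 (adjusted p = 3.1e-05) between tI-3 and Con-3 with limma. Bora, an activator of Aurora A, gave -1.14 (adjusted p = 0.00029) and -1.73 (adjusted p = 4.6e-05). Both were higher in Ind-8 than in tI-3, by 0.60 (adjusted p = 0.014) and 0.59 (adjusted p = 0.014) with limma. Only 1 gene of this list was called higher in Ind-8 than in tI-3 with the hybridization-control block. That call of Haus6, Bora or both was thus lost there. Pbk, a mitotic kinase, was lower in Ind-8 than in Con-3 at a log2 change of -0.90 (adjusted p = 0.00025) and gave 0.02 (adjusted p = 0.9) between tI-3 and Con-3.

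Cohesin genes, which hold the sister chromatids together, gave 7 of 13 lower in Ind-8 than in Con-3, 6 lower than in tI-3, and 2 lower and 1 higher in tI-3 than in Con-3, with medians of -0.40, -0.39 and 0.01. These cohesin shares were 53.8% and 0%, 46.2% and 0%, and 15.4% and 7.69% lower and higher, beside 11.0% and 10.9%, 15.5% and 15.6%, and 15.1% and 10.2% of all probe sets, and between tI-3 and Con-3 they were close to the background. The cohesin protector Cdca5, the core subunit Smc3 and the regulator Pds5a changed by -0.80 (adjusted p = 0.0003), -0.60 (adjusted p = 0.0011) and -0.58 (adjusted p = 0.0046) between Ind-8 and Con-3 with limma. The 17 subunits and cofactors of the anaphase-promoting complex gave 5 lower and 1 higher in Ind-8 than in Con-3, 4 lower and 4 higher in Ind-8 than in tI-3, and 5 lower and 1 higher in tI-3 than in Con-3, with medians of -0.19, -0.01 and -0.25. Of the 17, 29.4% and 5.88%, 23.5% and 23.5%, and 29.4% and 5.88% were lower and higher, beside 11.0% and 10.9%, 15.5% and 15.6%, and 15.1% and 10.2% of all probe sets. The largest changes between Ind-8 and Con-3 were those of the subunit Cdc23, at -0.93 (adjusted p = 0.00015), the inhibitor Fbxo5, at -0.76 (adjusted p = 0.0015), and the subunit Anapc15, at -0.58 (adjusted p = 0.0016) (limma).

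DNA replication genes, which act in S phase rather than in mitosis, gave 31 of 43 lower and 0 higher in Ind-8 than in Con-3, 15 lower and 0 higher in Ind-8 than in tI-3, and 12 lower and 1 higher in tI-3 than in Con-3, with medians of -0.40, -0.20 and -0.20. That is 72.1% and 0%, 34.9% and 0%, and 27.9% and 2.33% lower and higher, beside 11.0% and 10.9%, 15.5% and 15.6%, and 15.1% and 10.2% of all probe sets. Of probe sets at least as bright as the dimmest member, 27.8% were lower in tI-3 than in Con-3, so the 27.9% was close to that share. Rpa2, which coats single-stranded DNA, Cdc6, which loads the replicative helicase, and Mcm5, a subunit of that helicase, were lower in Ind-8 than in Con-3 at a log2 change of -1.06 (adjusted p = 3.5e-05), -0.94 (adjusted p = 0.00016) and -0.86 (adjusted p = 0.00025) and lower in tI-3 than in Con-3 at -0.68 (adjusted p = 0.00058), -0.82 (adjusted p = 0.00053) and -0.75 (adjusted p = 0.00085) with limma. Of 13 genes of the MuvB, DREAM, B-Myb and NF-Y regulators, with Nfya and Nfyb for NF-Y, 5 were lower and 0 higher in Ind-8 than in Con-3, 3 lower and 3 higher in Ind-8 than in tI-3, and 6 lower and 0 higher in tI-3 than in Con-3, with medians of -0.22, -0.08 and -0.39. For these regulators the shares were 38.5% and 0%, 23.1% and 23.1%, and 46.2% and 0% lower and higher, beside 11.0% and 10.9%, 15.5% and 15.6%, and 15.1% and 10.2% of all probe sets. Mybl2, the B-Myb activator of mitotic genes, changed most, at a log2 change of -1.52 (adjusted p = 0.00023) between Ind-8 and Con-3 and -1.12 (adjusted p = 0.0019) between tI-3 and Con-3. The repressors E2f4 and Rbl1 changed by -0.55 (adjusted p = 0.0052) and -0.54 (adjusted p = 0.0021) between Ind-8 and Con-3 with limma.

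These lists were counted again in the 2 other limma fits. Without Con-3 replicate 3, the numbers lower and higher in Ind-8 than in Con-3 were 3 and 0 for the 4 cyclins, 17 and 0 for the other kinetochore genes, 20 and 2 for the other spindle genes, 8 and 0 for cohesin, 4 and 1 for the anaphase-promoting complex, 24 and 0 for DNA replication, 5 and 0 for the MuvB, DREAM, B-Myb and NF-Y regulators and 0 and 2 for the fibroblast markers, beside 8.18% and 8.02% of all probe sets. The block gave the same numbers in that comparison, where it amounts to leaving that array out. Between tI-3 and Con-3 they were 1 and 0 for the 4 cyclins, 7 and 0 for the other kinetochore genes, 7 and 2 for the other spindle genes, 1 and 1 for cohesin, 5 and 1 for the anaphase-promoting complex, 11 and 1 for DNA replication, 6 and 0 for the MuvB, DREAM, B-Myb and NF-Y regulators and 3 and 1 for the fibroblast markers without the array, beside 13.5% and 10.2%. With the block they were 1 and 0 for the 4 cyclins, 1 and 0 for the other kinetochore genes, 4 and 0 for the other spindle genes, 1 and 0 for cohesin, 3 and 1 for the anaphase-promoting complex, 6 and 1 for DNA replication, 1 and 0 for the MuvB, DREAM, B-Myb and NF-Y regulators and 3 and 0 for the fibroblast markers, beside 8.56% and 5.06%. Between Ind-8 and tI-3 the block left 0 and 0 for the 4 cyclins, 1 and 0 for the other kinetochore genes, 2 and 1 for the other spindle genes, 0 and 0 for cohesin, 1 and 1 for the anaphase-promoting complex, 1 and 0 for DNA replication, 0 and 0 for the MuvB, DREAM, B-Myb and NF-Y regulators and 0 and 2 for the fibroblast markers, beside 0.941% and 2.2%.

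**Figure D5:**
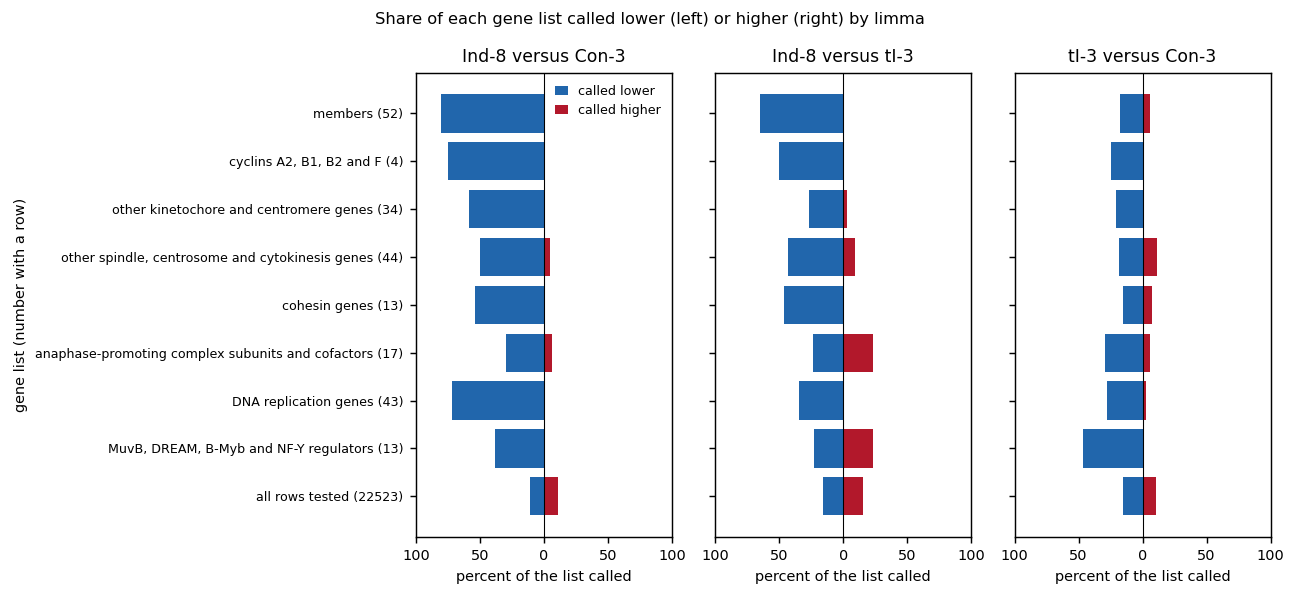
Percent of each gene list (y axis, with the number of genes) called lower (left of 0) or higher (right of 0) by limma in each comparison (x axis). In the left panel 80.8% of the members, 72.1% of the DNA replication genes and 11.0% of all probe sets were lower in Ind-8 than in Con-3.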

How the data were processed

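Gene expression was measured on 8 Affymetrix mouse genome arrays, 3 of Ind-8, 3 of Con-3 and 2 of tI-3 cells, grouped by the sample labels. The authors summarized the scans by RMA in R (version not given in the sources used here), with 1 probe set per RefSeq transcript, and deposited log2 intensities. Arrays have no sequencing depth; their number limits the precision. Of 22587 probe sets, 64 Affymetrix controls were left out. RefSeq transcripts of the mouse assembly GRCm38.p6 named 18294 of the other 22523 (81.2%), and 18172 value profiles were distinct. Probe sets with equal values to 6 decimals counted once per gene, and the brightest profile stood for each gene.

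All 8 arrays entered 1 fit of limma 3.58.1 (R 4.3.3) with a mean per line and the default prior, and p-values were adjusted by Benjamini-Hochberg over 22523 probe sets, with calls at 0.05. The study's rank product test was re-implemented in Python 3.11.15 (numpy 2.4.6, pandas 2.3.3, scipy 1.17.1; figures with matplotlib 3.10.9), with 100 permutations within arrays and a pfp under 0.05. Both were tested on simulated data, with 200 of 22523 probe sets changed in Ind-8. Against Con-3, limma recovered 89 of 100 changed by a log2 of 1 and 100 of 100 changed by 2, with 10 false calls, and the rank product 99 and 100, with 37 false calls, a larger share of its calls than the threshold of 0.05. Promoter windows came from RefSeq.

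The members and gene lists were chosen with earlier results of these data known. Values on every array are given for the 3 members of each role with the largest absolute change between Ind-8 and Con-3, for members called in opposite directions in 2 comparisons, for members called higher in Ind-8 than in Con-3 (there were 0), for 3 mitotic cyclins and for the genes that check the labels. In other lists up to 3 of the genes with the largest such change are named; further members are named with their change only, and fibroblast markers for their level or their change in any comparison. In the lists, Kif14, Kifc1, Cep192, Rhoa, Gins1, Pcna, Lin52, Nfyc and Cd68 matched no probe set. Alternatives were the 2 compared lines only, the replicate number or the hybridization-control level as a block, quantile normalization again, median centring, a trended robust prior, probe sets above the 25th percentile, identical probe sets once, curated transcripts only, controls kept, the mean of a gene's profiles, stricter thresholds, another permutation scheme or seed for the rank product, and each array left out.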

Additional observations from a re-analysis of the deposited data

How the results depend on the processing

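All 19 limma refits kept the members' median below 0 in both comparisons of Ind-8; shares in brackets are of all probe sets. Of the 42 members lower in Ind-8 than in Con-3, 33 passed in all 19 limma refits. Of the 34 lower than in tI-3, 5 passed in all of them, and 20, these 5 included, passed in the 18 without the hybridization-control block. Of 12 called between tI-3 and Con-3, 5 passed in all. For single named genes, 3789 of 3969 recomputed values stayed on their side of the threshold, 158 no longer passed, 22 newly passed, and 0 called values changed sign. Of 245 recomputed counts and medians, 218 stayed within 1.5 times or 1 SD (0.102).

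With an absolute log2 change of at least 1 also required, limma called 4 members lower in Ind-8 than in Con-3 (0.431%), 0 lower than in tI-3 (0.573%), and 0 lower and 0 higher in tI-3 than in Con-3 (2.11% and 1.15%). At an adjusted p under 0.01 it called 22 lower in Ind-8 than in tI-3 (5.55%), and 5 lower and 1 higher in tI-3 than in Con-3 (9.35% and 4.55%). With the hybridization-control block it called 5 lower in Ind-8 than in tI-3 (0.941%) and 5 lower in tI-3 than in Con-3 (8.56%), where fewer arrays join the lines. With quantile normalization again the median between Ind-8 and tI-3 was -0.61, and 5 members were lower and 5 higher in tI-3 than in Con-3 (12.4% and 11.3%); the cause was not tested.

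The rank product called 4 members lower in Ind-8 than in Con-3 at a pfp under 0.01 (0.506%). With each ranking permuted independently, a null that ignores the arrays that pairs share, it called 42 lower in Ind-8 than in Con-3 (9.75%), 21 lower than in tI-3 (6.25%), and 4 lower and 2 higher in tI-3 than in Con-3 (8.11% and 6.14%). With 1 array left out, the rank product called 2 to 11 members lower in Ind-8 than in Con-3 (0.32% to 1.07%), where fewer pairs are ranked.

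With 1 array left out, limma called 36 to 42 members lower in Ind-8 than in Con-3 (7.65% to 10.2%), 20 to 34 lower than in tI-3 (4.61% to 16.7%), and 4 to 11 lower (8.48% to 15.0%) and 1 to 3 higher (5.25% to 10.2%) in tI-3 than in Con-3, with medians of -0.58 to -0.48, -0.49 to -0.41 and -0.14 to -0.04; leaving out a tI-3 array leaves 1, assumed to vary like the other lines.

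With the replicate block, limma called 43 members lower and 0 higher in Ind-8 than in Con-3 (11.8% and 12.1%), 37 lower and 0 higher in Ind-8 than in tI-3 (19.6% and 17.4%), and 10 lower and 2 higher in tI-3 than in Con-3 (16.0% and 12.3%), with medians of -0.55, -0.47 and -0.09. The deviations of same-numbered Ind-8 and Con-3 arrays from their line means correlated at 0.27, 0.0286 and 0.3814 over all probe sets, those of Ind-8 and tI-3 at 0.0093 and -0.2253, and those of tI-3 and Con-3 at 0.2046 and 0.0424, and 2 of 3 Ind-8 arrays correlated best with the Con-3 array of their own number. The labels link these arrays by number only, and whether same-numbered preparations were handled together is not given in the sources used here.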
